A study of Homo sapiens with 8 samples.

Results

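The genes described here are 39 genes of the G2 phase and mitosis, taken from a list by gene symbol, in Kasumi-1 cells with and without knockdown of the fusion RUNX1/ETO. All 39 had a probe on the array. The list was represented by the 38 genes with a probe above a background cut-off of 5.9 on at least 2 of 8 arrays, out of 8830 genes that met the same condition, each by its brightest probe. CDC25C, the phosphatase that activates CDK1, did not pass: both of its probes stayed below the cut-off on all 8 arrays, so nothing is said of its level. MKI67 was above the cut-off on 6 arrays, BUB1B on 7 and PLK1 on 2, and the remaining members were above it on all 8.

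RUNX1/ETO is the product of the t(8;21) translocation, and Kasumi-1 is a human cell line grown from an acute myeloid leukaemia that carries it. Cells were electroporated with siRNA at 200 nM, either siRE, directed against the fusion transcript, or siMM, a mismatch control. Each siRNA has 1 Illumina array at 48 h and 1 at 96 h, both after 1 electroporation, 1 at 168 h, 72 h after the second, and 1 at 240 h, 72 h after the third. Time points are not replicated, and controls were electroporated as often as knockdown cells. Whether separate cultures were used at each time is not in the labels, so the p-values cover only how much these 8 arrays vary. With 1 array per siRNA and time, the error of a mean difference is estimated from how such differences vary between times. Noise between arrays cannot be separated from that variation. A difference that grows with time adds to its own error and raises its p-value. A high p-value therefore does not show that a gene is unchanged. All levels are the deposited log2 values, which may be variance-stabilised, so a fold holds only for plain log2. The probe of RUNX1T1, the gene that supplies the ETO end of the fusion, read between 8.65 and 9.23 in siMM and between 7.18 and 7.81 in siRE. Of 8 myeloid blast markers listed, 6 were above the cut-off on all arrays, while the probe of PTPRC, the leukocyte antigen CD45, was above it on none and CD33 had no named probe. CD34, the progenitor antigen among those 6, read 11.37, 11.57, 11.72 and 11.62 in siMM at 48, 96, 168 and 240 h and 10.99, 10.24, 9.06 and 8.50 in siRE. It was lower in siRE at every time and more so at each later one, with a mean difference of -1.87 (SE 0.35, limma adjusted p = 0.00958). KIT, MPO, ANPEP and SPI1, also among those 6, stood at -0.13, -0.11, 0.08 and 0.39. They did not pass (limma adjusted p = 0.662, 0.648, 0.762 and 0.185), so CD34 does not speak for the markers as a set. The part of the CD34 change in the G2/M values below was not tested. Of 16 markers of other lineages, 14 had a named probe. EPCAM was above the cut-off on all 8 arrays, at 11.27 to 11.60 in siMM and 11.03 to 11.40 in siRE, CD2 and CD79A were above it on 3, and none of the remaining 11 was above it on more than 1.

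Entry into mitosis is driven by CDK1 bound to cyclin B, held back by inhibitory phosphorylation until CDC25 phosphatases remove it. Aurora and Polo-like kinases then organise centrosomes and the spindle, kinetochore and checkpoint proteins hold anaphase until all chromosomes are attached, and the anaphase-promoting complex with CDC20 and UBE2C marks securin and cyclin B for destruction. Transcripts of most of these genes rise together late in the cell cycle. Their regulators include FOXM1, B-MYB and the DREAM complex. These act through a short promoter element called the CHR (cell cycle genes homology region) and nearby CCAAT boxes bound by NF-Y. In a bulk sample, fewer cells in G2 and mitosis and less RNA per such cell cannot be told apart.

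CDK1, CENPA and CCNB1 read lower in siRE at 240 h, where both PLK1 values lay below the cut-off. ECT2 is one of 2 members with a mean above control. The promoter sequences of these 5 members are shown because their values by array are described below. They are RefSeq windows of GRCh38.p14, 250 bases before to 50 after the annotated start, written 5′ to 3′ on the gene's strand, with matches to the CHR (TTTGAA or TTCGAA) and to CCAAT in capitals on either strand. CDK1 is at chr10:60778081-60778380, PLK1 at chr16:23678639-23678938, CENPA at chr2:26785806-26786105, CCNB1 at chr5:69166900-69167199 and ECT2 at chr3:172750476-172750775, and all 5 lie on the plus strand.
CDK1: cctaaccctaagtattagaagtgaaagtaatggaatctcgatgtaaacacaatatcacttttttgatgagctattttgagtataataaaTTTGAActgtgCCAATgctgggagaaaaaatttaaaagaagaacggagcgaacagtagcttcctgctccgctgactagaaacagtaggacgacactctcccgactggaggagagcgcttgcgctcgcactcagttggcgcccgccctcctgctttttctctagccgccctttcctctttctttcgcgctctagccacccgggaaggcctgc
PLK1: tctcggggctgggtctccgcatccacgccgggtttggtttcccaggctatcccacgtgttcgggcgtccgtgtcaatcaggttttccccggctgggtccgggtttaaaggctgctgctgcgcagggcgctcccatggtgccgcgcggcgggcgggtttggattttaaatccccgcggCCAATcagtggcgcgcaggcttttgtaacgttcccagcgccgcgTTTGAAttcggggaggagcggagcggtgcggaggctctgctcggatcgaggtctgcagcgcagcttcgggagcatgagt
CENPA: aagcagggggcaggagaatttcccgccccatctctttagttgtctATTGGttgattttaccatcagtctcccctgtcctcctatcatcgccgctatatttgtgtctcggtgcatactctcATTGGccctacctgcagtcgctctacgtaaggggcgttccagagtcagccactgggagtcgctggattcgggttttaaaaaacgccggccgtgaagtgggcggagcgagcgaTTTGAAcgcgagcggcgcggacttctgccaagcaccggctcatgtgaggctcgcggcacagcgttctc
CCNB1: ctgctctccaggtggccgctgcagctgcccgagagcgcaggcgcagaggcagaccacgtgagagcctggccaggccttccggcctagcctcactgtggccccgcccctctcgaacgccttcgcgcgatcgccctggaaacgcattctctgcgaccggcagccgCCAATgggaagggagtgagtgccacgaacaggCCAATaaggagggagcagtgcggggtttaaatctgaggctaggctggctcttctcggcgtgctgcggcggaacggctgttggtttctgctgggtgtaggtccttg
ECT2: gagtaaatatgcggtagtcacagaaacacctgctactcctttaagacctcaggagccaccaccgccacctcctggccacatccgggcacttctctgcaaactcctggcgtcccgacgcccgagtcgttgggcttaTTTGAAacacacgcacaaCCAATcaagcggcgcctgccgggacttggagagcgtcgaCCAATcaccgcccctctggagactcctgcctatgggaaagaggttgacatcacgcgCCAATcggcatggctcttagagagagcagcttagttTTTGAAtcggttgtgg

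The PLK1 window has CCAAT starting at base -73 and TTTGAA at base -29, counted from the annotated start. CENPA has its TTTGAA at base -18 and CCAAT on the opposite strand at -130 and -205. CCNB1 has CCAAT at -87 and -55 and neither TTTGAA nor TTCGAA, and CDK1 has TTTGAA and CCAAT farther from this start, at -161 and -150. ECT2 has CHR matches at -115 and 35 and CCAAT at -97, -58 and -2, so it has both motifs in this window, as CENPA does. Promoter sequences were available for 33 of the 39 listed genes, with no entry for AURKA, BUB3, TTK, TPX2, UBE2C and BIRC5, and 1 window was used per gene.

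A CHR match was present in 23 of these 33 windows (69.7%), against 16.62% of 27305 promoters searched in the same way. CCAAT was present in 25 of 33 (75.76%, against 35.7%) and both motifs in 19 (57.58%, against 6.581%). An E2F site, searched as TTTGGCGC or TTTCGCGC on both strands, was present in 2 members, CDK1 and NUSAP1 (6.061%, against 1.179%). Of the 32 CHR matches in members, 24 began between base -100 and base 50. The 23 tested members with a CHR match had a median siRE minus siMM difference of -0.28 over the 4 times, and the 9 tested members without one had a median of -0.27. A match is a description of the letters and does not show that a factor binds there. Only TTTGAA and TTCGAA were searched as the CHR, so a member without a match is not shown to lack the element.

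**Figure D1:**
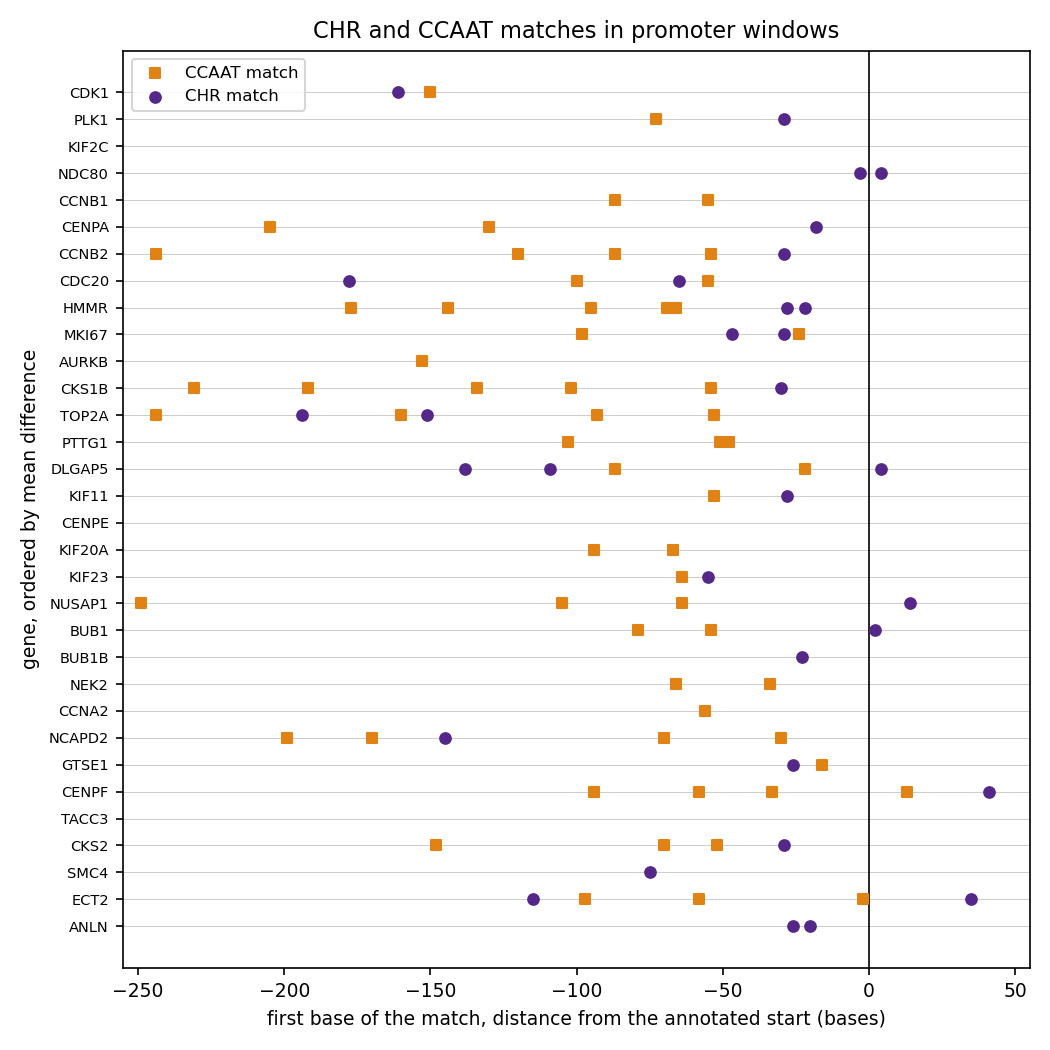
Position of the first base of each CHR match (circles) and CCAAT match (squares) in the promoter windows of the 32 members that were tested and have a sequence, in bases from the annotated start, with genes ordered from the lowest to the highest mean difference. The 9 members without a CHR match have mean differences between -0.49 and -0.12, inside the range of the 23 with one.

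At 48 h the G2/M genes did not stand on one side of their controls, and at the later times nearly all did. In siRE, 17 of 38 members read below their siMM array at 48 h, beside 52.5% of all 8830 genes tested. At 96 h 36 of 38 were below it (54.9% of all genes), at 168 h 33 of 38 (52.9%) and at 240 h 37 of 38 (55.5%). The median difference over the members was 0.05, -0.42, -0.33 and -0.50 at 48, 96, 168 and 240 h, beside -0.02, -0.04, -0.03 and -0.07 over all genes tested. These are 1 array against 1 and carry no test, and all members at a time share the same 2 arrays. At all 4 times 16 members were below their controls (19.2% of all genes), and 0 members were at or above them at all 4, beside 1226 of 8830 genes. The exceptions were GTSE1 and ECT2 at 96 h, BUB1B, CKS2, SMC4, ECT2 and ANLN at 168 h, and ANLN at 240 h. CKS2 had the same value in both arms at 168 h.

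**Figure D2:**
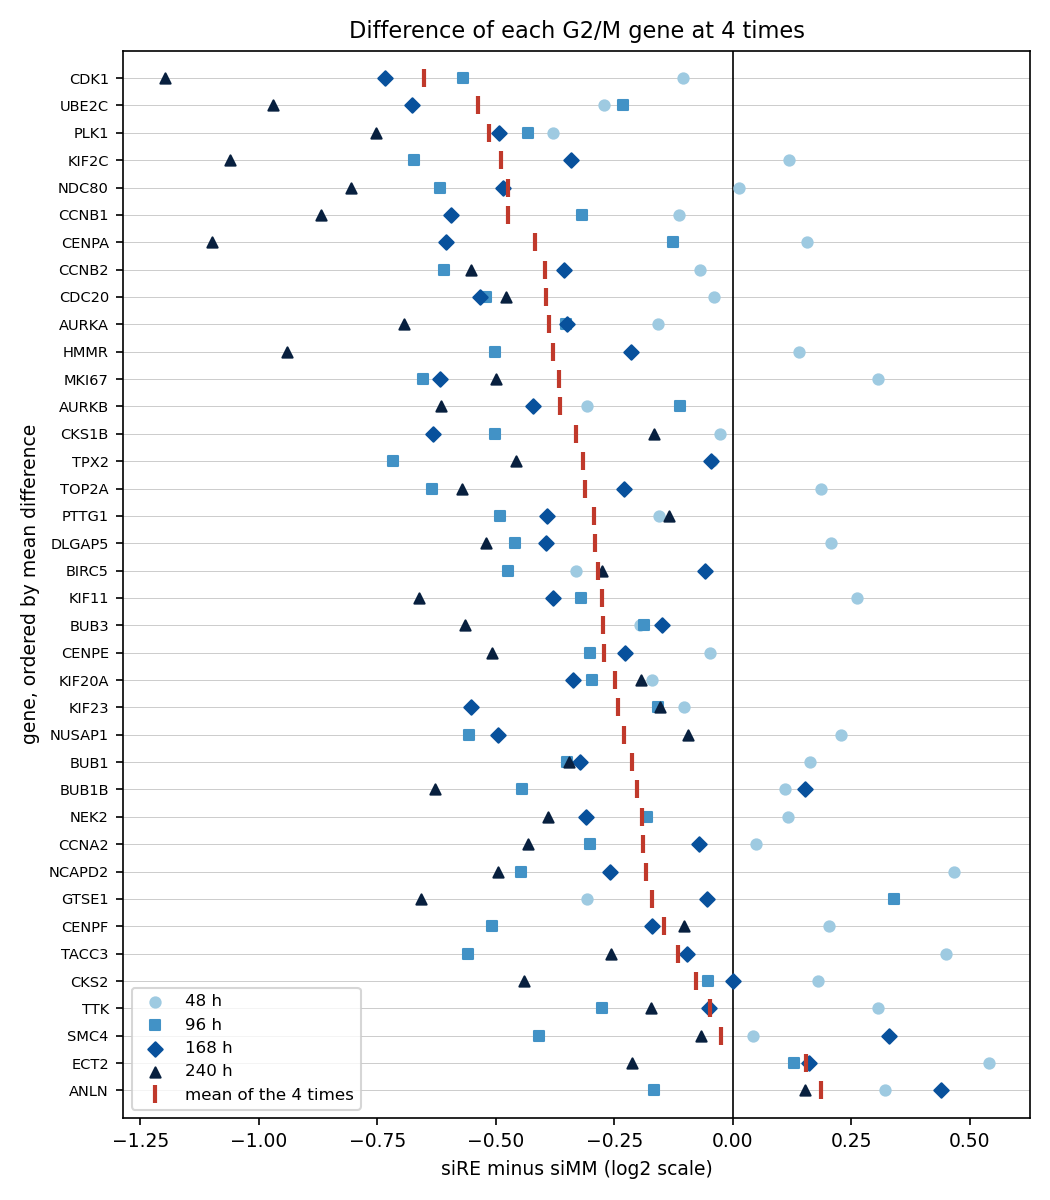
Difference between siRE and siMM on the log2 scale for each of the 38 members at 48, 96, 168 and 240 h, with a vertical bar at the mean of the 4 times. The 48 h points lie on both sides of 0, between -0.38 (PLK1) and 0.54 (ECT2), and the 240 h points lie below 0 for every member except ANLN.

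The largest differences were at 240 h, where they ran from -1.20 to 0.15. CDK1, CENPA and KIF2C were lower by 2-fold or more there, 3 of 38 members beside 5.23% of all genes. Over the 4 times together, limma with time as a factor gave an adjusted p under 0.05 to 2 members with a lower value, CDK1 and PLK1, and to 0 with a higher one. PLK1 was tested only because 2 siMM arrays were above the cut-off, so its p supports nothing, and CDK1 is the 1 member called among those measured in both arms. Of all genes tested 3.34% were called lower and 3.76% higher, so 2 of 38 is a share near the background. With time left out of the model as a block neither passed (limma adjusted p = 0.175 for CDK1 and 0.108 for PLK1). At an unadjusted p under 0.05, 11 members were lower, which are CDK1, UBE2C, PLK1, KIF2C, NDC80, CCNB1, CCNB2, CDC20, AURKA, AURKB and CKS1B, beside 14.4% of all genes, and 0 were higher, beside 10.4%. The mean differences of the members ran from -0.65 to 0.19 with a median of -0.28, beside -0.04 for all genes, and their standard errors from 0.13 to 0.19. In simulated data the main fit recovered 0% of planted differences of 0.5 and 66% of those of -1. A low count of calls therefore does not show that differences of the members' size are absent.

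Among the cyclins and partners of CDK1, 6 of 6 tested were below control at 240 h. CDK1, the kinase that drives entry into mitosis (ILMN_1747911, chromosome 10), read 9.64, 9.26, 9.17 and 9.36 in siMM at 48, 96, 168 and 240 h and 9.54, 8.69, 8.44 and 8.16 in siRE. The arms were close at 48 h and drew apart at each later time, by -0.10, -0.57, -0.73 and -1.20, and the siRE value of 48 h lay within the siMM range. The mean change was -0.65 (SE 0.17, limma adjusted p = 0.0494), or 63.7% of control on a plain log2 scale. A dimmer CDK1 probe (ILMN_1710428) stood at -0.43 and did not pass (limma adjusted p = 0.199), with -1.13 at 240 h. CDK1 no longer passed when the 96 h arrays were left out (-0.68, limma adjusted p = 0.156), nor without the 168 h pair (-0.62, 0.229) or the 240 h pair (-0.47, 0.143). It also missed the threshold with no filter on dim probes (0.0531), with values set to the cut-off (0.0967), after cyclic loess (0.054) and over the mean of its probes (0.108), all limma adjusted.

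CCNB1, cyclin B1, read 8.11, 7.36, 7.52 and 7.57 in siMM and 7.99, 7.04, 6.93 and 6.70 in siRE in the same order of times. Its siMM array was highest at 48 h and flat afterwards, while its siRE values went on to lower readings at every time, with a mean difference of -0.47 (SE 0.15) that did not pass (limma adjusted p = 0.095). CCNB2, cyclin B2, read 9.69, 9.38, 9.08 and 9.39 in siMM and 9.62, 8.77, 8.73 and 8.84 in siRE. The arms of CCNB2 overlapped through the 48 h siRE value, and the mean difference of -0.40 (SE 0.14) did not pass (limma adjusted p = 0.127). CCNA2, cyclin A2 of S phase and early mitosis, stood at -0.19, and CKS1B and CKS2, small subunits that bind CDKs, at -0.33 and -0.08.

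Of the mitotic kinases and their partner survivin, all 5 were below control at 240 h, PLK1 with both values under the cut-off. PLK1, Polo-like kinase 1 (ILMN_1736176, chromosome 16), read 5.87, 6.20, 5.96 and 5.87 in siMM and 5.50, 5.77, 5.46 and 5.12 in siRE. PLK1 was above the cut-off on 2 of 4 siMM arrays and on no siRE array, so it entered the test only through the arm where it was higher. Its arms did not overlap, 1 of 38 members beside 5.93% of all genes, but 6 of its 8 values lie in the background and nothing is read from this or from its p. No bound on the difference can be given, since the siMM values at 48 and 240 h (5.87 and 5.87) also lay below the cut-off. The fitted difference was -0.51 (limma adjusted p = 0.047). PLK1 no longer passed once the 48 h arrays were left out (-0.56, limma adjusted p = 0.0596), nor without the 96 h pair (-0.54, 0.138), the 168 h pair (-0.52, 0.203) or the 240 h pair (-0.43, 0.128), and with values below the cut-off set to it the difference was -0.09 (limma adjusted p = 0.636).

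AURKA, the centrosome and spindle kinase Aurora A, read 9.20, 8.84, 8.62 and 9.02 in siMM and 9.04, 8.49, 8.27 and 8.32 in siRE. From 168 to 240 h the siMM value went up and the siRE value stayed nearly level, and the mean difference of -0.39 (SE 0.14) did not pass (limma adjusted p = 0.128). AURKB, the kinase of the chromosomal passenger complex, read 7.77, 7.29, 6.95 and 7.59 in siMM and 7.47, 7.17, 6.53 and 6.98 in siRE. Both arms of AURKB were lowest at 168 h, and the difference of -0.36 (SE 0.14) did not pass (limma adjusted p = 0.147). BIRC5, survivin, which sits in the same complex, read 7.85, 7.33, 6.95 and 7.38 in siMM and 7.52, 6.85, 6.89 and 7.10 in siRE, and its arms nearly met at 168 h. Its mean difference was -0.29 (SE 0.13, limma adjusted p = 0.235), and NEK2, a centrosome kinase, stood at -0.19.

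**Figure D3:**
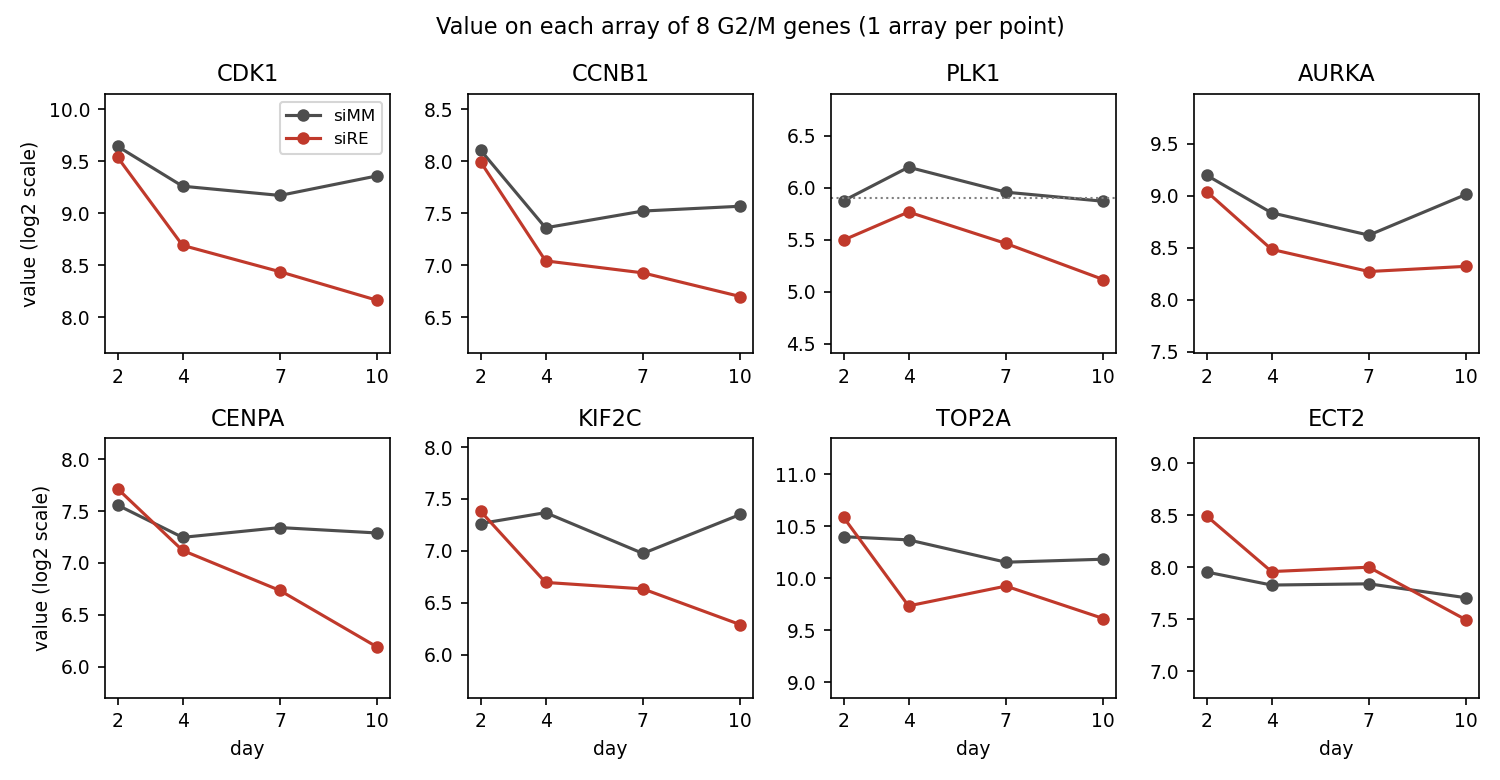
Value on each of the 8 arrays for 8 members, on the log2 scale against day, with siMM in grey and siRE in red, 1 array per point and the same height of axis in every panel. In siRE at 240 h CDK1 is at 8.16 and CENPA at 6.19, ECT2 is above control until 168 h, and the dotted line in the PLK1 panel is the background cut-off of 5.9.

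The kinetochore and checkpoint genes were all below control at 240 h (8 of 8), with a median of -0.54 there and 0.13 at 48 h. CENPA, the histone H3 variant that marks the centromere (chromosome 2), read 7.56, 7.25, 7.34 and 7.29 in siMM and 7.71, 7.12, 6.74 and 6.19 in siRE. CENPA was above control at 48 h and moved lower at each step, with differences of 0.16, -0.13, -0.61 and -1.10, so its mean difference of -0.42 (SE 0.19, limma adjusted p = 0.221) covers opposite signs. A second CENPA probe stood at -0.55, with -1.17 at 240 h. NDC80, a core subunit of the outer kinetochore, read 8.67, 8.51, 8.34 and 8.39 in siMM and 8.69, 7.89, 7.85 and 7.59 in siRE. Its differences were 0.01, -0.62, -0.49 and -0.81, and its arms overlapped through the 48 h siRE value. The mean difference of -0.47 (SE 0.16) did not pass (limma adjusted p = 0.102). The motor CENPE stood at -0.27, the kinetochore protein CENPF at -0.14, and the checkpoint genes BUB3, BUB1, BUB1B and TTK at -0.27, -0.21, -0.20 and -0.05.

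By their brightest probes, the 3 genes of anaphase control were below control at every time, beside 19.2% of all genes. The group was made after the values were seen. UBE2C, the ubiquitin-conjugating enzyme of the anaphase-promoting complex, read 10.88, 10.22, 10.30 and 10.56 in siMM and 10.61, 9.99, 9.62 and 9.59 in siRE. The siMM values returned upwards after 96 h and the siRE values did not, and the mean difference of -0.54 (SE 0.16) was the second lowest of the members yet did not pass (limma adjusted p = 0.0688). CDC20, the activator of the complex, stood at -0.39, and PTTG1, securin, at -0.29. A second PTTG1 probe stood at -0.21 and was level with control at 240 h (0.0032). PTTG1 has near-identical gene copies, so which copy its probes read is uncertain.

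Of the spindle motors and assembly factors, 8 of 8 were below control at 240 h. KIF2C, a kinesin that takes apart microtubule ends at the centromere, read 7.26, 7.37, 6.98 and 7.35 in siMM and 7.38, 6.70, 6.63 and 6.29 in siRE. KIF2C was above control at 48 h and 1.06 below it at 240 h, and its mean difference of -0.49 (SE 0.18) did not pass (limma adjusted p = 0.14). HMMR, a microtubule-binding spindle protein, read 8.26, 8.17, 7.73 and 7.89 in siMM and 8.40, 7.67, 7.51 and 6.95 in siRE, with its widest gap at 240 h (mean difference -0.38, SE 0.17, limma adjusted p = 0.221). A second HMMR probe showed a smaller difference of -0.21, with -0.54 at 240 h against -0.94 for the brightest. TPX2, which activates Aurora A on the spindle, stood at -0.32, DLGAP5 at -0.29, the motor KIF11 at -0.28, NUSAP1 at -0.23, GTSE1 at -0.17 and TACC3 at -0.12.

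The 4 genes of chromosome structure were below control at 240 h, with a median of 0.25 above control at 48 h. TOP2A, the topoisomerase that untangles sister chromatids, read 10.40, 10.37, 10.15 and 10.18 in siMM and 10.59, 9.73, 9.92 and 9.61 in siRE, above control at 48 h and below it afterwards (mean -0.31, SE 0.16, limma adjusted p = 0.273). MKI67, the proliferation antigen Ki-67, read 6.28, 6.45, 6.26 and 6.64 in siMM and 6.58, 5.79, 5.65 and 6.14 in siRE. MKI67 was above control at 48 h, below it at each later time and under the cut-off in siRE at 96 and 168 h (mean -0.37, SE 0.17, limma adjusted p = 0.235). SMC4, a condensin subunit, read 9.44, 9.36, 8.93 and 9.11 in siMM and 9.48, 8.95, 9.26 and 9.04 in siRE, so its arms crossed and its difference was -0.03 (SE 0.15, limma adjusted p = 0.936). NCAPD2, another condensin subunit, stood at -0.18.

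The cytokinesis genes, a group made after the values were seen, held the 2 members with a mean above control. The group median was -0.04. ANLN, the actin-binding scaffold anillin of the cleavage furrow, read 7.23, 7.38, 6.99 and 6.87 in siMM and 7.55, 7.21, 7.43 and 7.02 in siRE. ANLN was above control at 3 of 4 times, with a mean difference of 0.19 (SE 0.14, limma adjusted p = 0.474). ECT2, the exchange factor that activates RhoA at the furrow, read 7.96, 7.83, 7.84 and 7.71 in siMM and 8.49, 7.96, 8.00 and 7.49 in siRE. ECT2 moved from 0.54 above control at 48 h to 0.21 below it at 240 h, and its mean difference of 0.15 (SE 0.15) did not pass (limma adjusted p = 0.578). The kinesins of the central spindle, KIF20A and KIF23, stood at -0.25 and -0.24.

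The next question was whether the difference grew with time. The slope of the siRE minus siMM difference per day was called for 0 of 38 members (1.05% of all genes in either direction, limma adjusted), and 7 members had a negative slope at an unadjusted p under 0.05 (9.46% of all genes) and 0 a positive one (6.39%). The 7 were CDK1, UBE2C, KIF2C, CCNB1, CENPA, HMMR and KIF11. CENPA had the most negative slope of the members, -0.16 per day (SE 0.04, limma adjusted p = 0.0794), followed by CDK1 at -0.13 (SE 0.04, limma adjusted p = 0.15). The median slope was -0.05 per day for the members and -0.01 for all genes. It was -0.0159 per day for the members without the 48 h pair. A straight line describes this course only in part: 34 of 38 differences were more negative at 96 h than at 48 h, 13 were more negative at 168 h than at 96 h, and 30 at 240 h than at 168 h. The same counts over all genes were not made.

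The values also changed with time within each arm. Electroporations numbered 1, 1, 2 and 3 at the 4 times, so day and repeated electroporation cannot be told apart within an arm. In siMM, 29 of 38 members were highest at 48 h and 21 were lowest at 168 h, and in siRE 36 were highest at 48 h and 20 were lowest at 240 h. These counts were not made over all genes, and all members share the same array at a time in an arm. Around each gene's mean over the 8 arrays, the member median went from 0.37 to 0.13, -0.01 and 0.09 in siMM and from 0.39 to -0.24, -0.34 and -0.36 in siRE. The same median over all genes tested lay between -0.06 and 0.03 on every array. Within siRE, the trend with day was called downwards for CENPA, -0.18 per day (SE 0.03, limma adjusted p = 0.0146), and HMMR, -0.16 per day (SE 0.04, limma adjusted p = 0.0365), 2 of 38 members beside 1.17% of all genes. At an unadjusted p under 0.05, 17 members had a downward siRE trend, beside 11.7% of all genes. Within siMM no trend was called for any gene tested (0% of all genes, limma adjusted), and 1 member, BUB1B, had a downward trend at an unadjusted p under 0.05, beside 0.849% of all genes. The siRE trend of CENPA lost its call without the 48 h pair (-0.16, limma adjusted p = 0.0987) or the 240 h pair (-0.19, 0.206). That of HMMR lost its call without the 48, 96, 168 or 240 h pair (-0.12, -0.18, -0.17 and -0.17, limma adjusted p = 0.219, 0.0758, 0.0582 and 0.277).

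**Figure D4:**
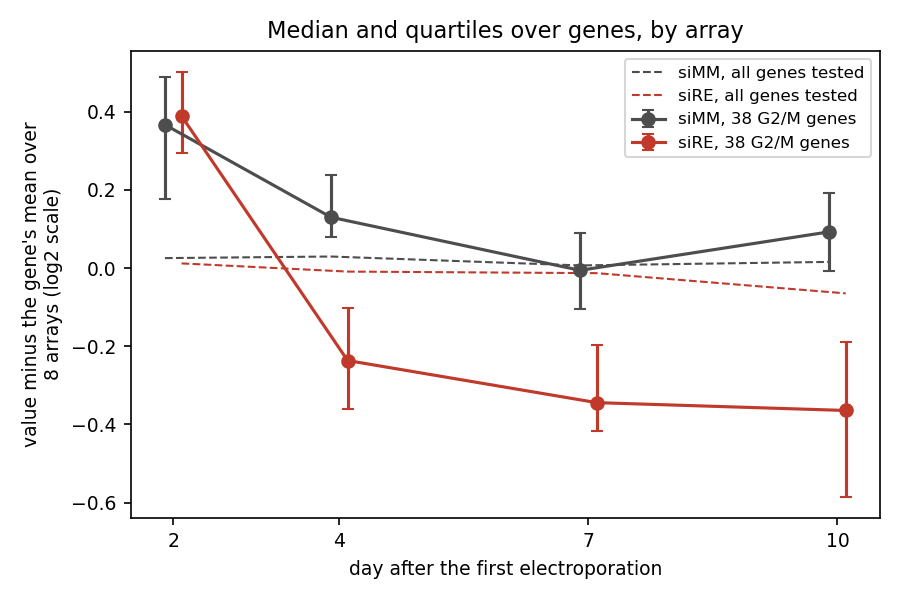
Median over the 38 members (points, with quartiles as bars) and over all genes tested (dashed lines) of the value minus the gene's mean over 8 arrays, on the log2 scale against day, by arm. Both arms start close together on day 2, at 0.37 and 0.39, and the siRE arm is at -0.24 on day 4 and -0.36 on day 10, while siMM ends at 0.09.

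Other genes of the same pathway were read from lists of related genes. The shares over all genes to set beside their counts are 3.34% called lower, 3.76% called higher, 14.4% lower unadjusted and 10.4% higher unadjusted. Of 41 spindle and kinetochore genes outside the members, limma called 0 and 14 were lower at an unadjusted p under 0.05, with a median difference of -0.24. The 2 with the lowest p were CENPM, a centromere subunit, at -0.48, and CKAP5, a microtubule polymerase, at -0.47 (limma adjusted p = 0.0903 and 0.0934). Their medians over time, 0.01, -0.35, -0.27 and -0.48, followed the course of the members. Of 12 passenger and cytokinesis genes 0 were called and 4 were lower unadjusted (median -0.09), led by PRC1, the bundler of the central spindle, at -0.50, and CDCA2 at -0.46 (limma adjusted p = 0.0697 and 0.136). Of 14 condensin and cohesin genes 0 were called by limma, with 2 lower and 1 higher unadjusted (median -0.05). The condensin subunit NCAPG stood at -0.47 and WAPL, which releases cohesin, at 0.40 (limma adjusted p = 0.113 and 0.154). Of 12 genes of the anaphase-promoting complex and its partners 0 were called, with 1 lower and 1 higher unadjusted (median -0.08), the subunit CDC26 at 0.34 and cyclin F, CCNF, at -0.35 (limma adjusted p = 0.181 and 0.206).

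Among 16 kinases and phosphatases of mitotic entry (median -0.21, 4 lower and 0 higher unadjusted), 1 was called, MELK, a kinase of proliferating cells, at -0.59 (SE 0.15, limma adjusted p = 0.0436). Among 13 transcription regulators of G2/M genes (median -0.14, 2 lower and 1 higher unadjusted), 1 was called, E2F5, a repressive E2F, at -0.77 (SE 0.17, limma adjusted p = 0.0203). FOXM1, named after its values were seen, stood at -0.22 (limma adjusted p = 0.388), and MYBL2, which encodes B-MYB, was not above the cut-off on 2 arrays. Of 12 inhibitors of the G2/M transition only 3 were above the cut-off on 2 arrays (median 0.59, 2 higher unadjusted), and GADD45A, a stress protein that inhibits CDK1, was higher by 0.79 (SE 0.15, limma adjusted p = 0.0121). GADD45A was above control already at 48 h, by 0.71, and by 0.66, 1.28 and 0.52 at the later times. Without the time block MELK did not pass (limma adjusted p = 0.212), while E2F5 and GADD45A did (0.0296 and 0.0331). With values below the cut-off set to it, MELK and E2F5 did not pass (limma adjusted p = 0.068 and 0.0584). MELK also missed the threshold with no filter on dim probes (limma adjusted p = 0.0576) and over the mean of its probes (-0.43, 0.0884). MELK lost its call without the 96 h pair (-0.57, limma adjusted p = 0.166), the 168 h pair (-0.55, 0.225) or the 240 h pair (-0.50, 0.113). E2F5 lost it without the same pairs (-0.88, -0.68 and -0.63, limma adjusted p = 0.0614, 0.16 and 0.0516), and GADD45A without the 96 h pair (0.84, 0.0642) or the 168 h pair (0.63, 0.108).

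**Figure D5:**
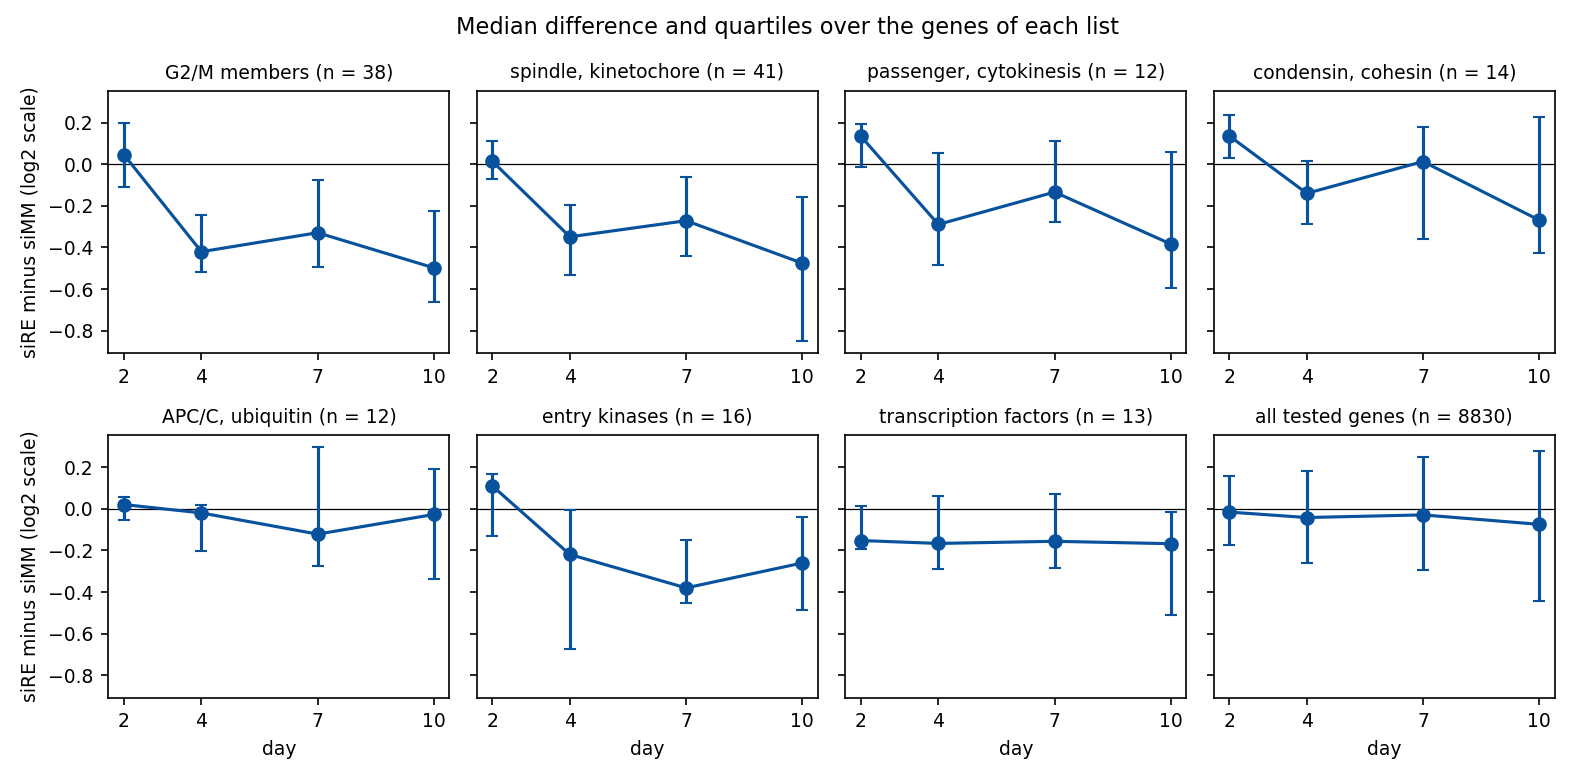
Median (points) and quartiles (bars) of the siRE minus siMM difference on the log2 scale against day, over the tested genes of each list and over all genes tested. Medians of the members and of the spindle, passenger, entry kinase and anaphase-promoting complex lists are above 0 on day 2. They lie below it from day 4. The condensin and cohesin list is at 0.01 on day 7, and the transcription list is below 0 on every day. The median of all genes tested stays between -0.07 and -0.02.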

How the data were processed

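RNA of 8 arrays was analysed, 4 per siRNA. Per the labels' protocols, biotinylated cRNA was hybridised to Illumina arrays. The deposited values are on a log2 scale, processed by the authors with lumi per the submitters' processing notes; no label or file states the version, background handling or transformation. Sorted from low to high, the 8 columns matched within 0.0235, the mark of quantile normalization, and none was added and a shift shared by most genes would not be visible. A second table with 16 columns was not used, since no label ties its columns to samples.

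Genes were named from the platform annotation (30112 probes with 1 symbol, 8 with several, 17110 with none; 30073 matched RefSeq of GRCh38.p14). Probes above 5.9 on 2 or more arrays were tested (14644 of 47230), and the brightest stood for its gene. limma 3.58.1 in R 4.3.3 was run over all tested probes with Benjamini-Hochberg adjustment at 0.05. The main fit had siRNA and time as factors (3 residual and 8.16 prior degrees of freedom); the labelled time pairs the arrays, whose deviations from the arm means correlated between 0.0724 and 0.375 within a time. Slopes per day used 2 residual degrees of freedom for the difference and 4 within arms. The fit and the motif search were tested on simulated data.

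The members, lists and tests were chosen with earlier results of these data known. Values on every array are given for members called in either fit of the difference, the 8 largest mean differences, the 6 largest at 240 h, the 3 highest, and CCNB1, CDK1, PLK1, AURKA, AURKB, TOP2A, MKI67 and BIRC5. Of the other lists, genes called are named (at most 6) or else the 2 with the lowest p. The role groups were made after the values were seen.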

Additional observations from a re-analysis of the deposited data

Results flagged for a closer look

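In 5 of 76 checks (38 members in each arm of 4 arrays), 1 array stood far from the others of its arm, its gap to the nearest exceeding Dixon's 95% limit for 4 values. Chance gives about 1 such array in 20 checks, and the 4 arrays of an arm are different times. All 5 were in siRE. The 48 h array was the high one for CCNB2 (9.623, the next at 8.84), DLGAP5 (8.521, the next at 7.512), CCNA2 (9.319, the next at 8.413) and TTK (8.254, the next at 7.662). The 240 h array was the low one for GTSE1 (6.016, the next at 6.789).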

How the results depend on the processing

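The direction and size of the member median over the 4 times held: -0.28 in the main setting, -0.38 to -0.22 when a time pair was left out, and -0.28 to -0.26 in the other settings. The counts below 0 at single times and the calls of MELK, E2F5 and GADD45A were recomputed in settings chosen after seeing the data. Cyclic loess, raising dim values to the cut-off, and the mean of all probes gave 13 to 17 of 38 at 48 h, 35 or 36 at 96 h, 33 at 168 h and 36 or 37 at 240 h, and genes above the cut-off on all 8 arrays gave 16, 33, 31 and 34 of 35. The number of members called lower did not hold. It was 0 with no replicate block (CDK1 and PLK1 at limma adjusted p = 0.175 and 0.108), 0 with no filter, 0 with values set to the cut-off, 1 with genes above the cut-off on 4 or more arrays, 1 with cyclic loess, 1 with the mean of all probes, and 4 (CDK1, UBE2C, NDC80 and CCNB1) both with genes above the cut-off on all 8 arrays and with limma's robust prior and trend. It ranged from 0 to 4 when a pair was left out, and fewer arrays leave fewer degrees of freedom. The 4 were CDK1, KIF2C, NDC80 and MKI67, without the 48 h pair. The main fit called 410 of 14644 probes lower. The count was 523 of 10165 with probes above the cut-off on all 8 arrays and 656 of 14644 with the robust prior and trend. It was 596 of 14644 without the 48 h pair, so calls also rose outside the members. For the slope of the difference 1 member, CENPA, was called with genes above the cut-off on all 8 arrays and with the intensity trend. Slopes called lower over all probes numbered 78 of 10165 and 221 of 14644 there, beside 61 of 14644 in the main fit. The median slope of the difference was -0.063 to -0.0159 per day without a pair. Members with a called siRE trend numbered 3 with limma's robust prior and trend, 1 with values set to the cut-off, 0 with array weights and 0 to 1 without a pair. Of all 14644 probes, 147 had a siRE trend called lower in the main fit. That count was 185 with the robust prior and trend, 30 with values set to the cut-off and 28 with array weights. The median siRE slope ranged from -0.137 to -0.0325 per day and the median siMM slope from -0.0645 to -0.0148 without a pair. E2F matches numbered 1 in the 200 bases next to the start. The replicate block is time; it raised the whole-table calls from 215 lower and 315 higher to 410 and 479. The cause of these changes was not tested beyond the smaller number of arrays or probes. Signal near background limits PLK1, MKI67 and BUB1B.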

Other observations

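Of 14 members with several probes above the cut-off, 11 had mean differences of 1 sign at all their probes. BUB3, whose product recruits the checkpoint kinases to kinetochores, had 4 such probes at -0.27, -0.31, -0.18 and 0.07, the last being the dimmest. The 2 probes of CKS2 stood at -0.08 and 0.13, and those of NUSAP1 at -0.23 and 0.04. SMC4 had the widest gap between probes at a single time: at 240 h its brightest probe stood at -0.07 and a dimmer one at -1.29. No source used here says which transcripts each probe reads.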
